A study of Fundulus heteroclitus with 15 samples.

Results

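Fatty acid beta-oxidation was examined in livers of adult females of the mummichog, a killifish of estuaries (Fundulus heteroclitus), through 18 probes for 15 named genes among the 7152 probes of an Agilent array. A probe was taken when its design name held, ignoring case, acyl-CoA dehydrogenase, 3-ketoacyl-CoA thiolase, enoyl-CoA hydratase, carnitine O-palmitoyltransferase, trifunctional enzyme, hydroxyacyl-coenzyme A dehydrogenase, acyl-coenzyme A oxidase or electron transfer flavoprotein. The study kept fish for 14 days in water with 0, 50 or 250 ng/L of 17α-ethinylestradiol (EE2), a synthetic estrogen used in oral contraceptives, and 5 arrays of liver RNA were made for each group as biological replicates. The labels do not say whether an array holds 1 fish or several, and name no strain or vehicle, so the control is described here only as the 0 ng/L group. Replicate numbers below count the arrays of each group in their deposited order and are not part of the labels.

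Beta-oxidation takes fatty acids apart from the carboxyl end, releasing acetyl-CoA with each turn of a repeating cycle. Carnitine palmitoyltransferases and the carnitine/acylcarnitine carrier bring long chains into mitochondria. There an acyl-CoA dehydrogenase introduces a double bond, an enoyl-CoA hydratase adds water, a 3-hydroxyacyl-CoA dehydrogenase oxidises the hydroxyl group and a 3-ketoacyl-CoA thiolase splits off acetyl-CoA. The trifunctional enzyme of the inner membrane joins the later steps for long chains, and electrons taken by the dehydrogenases pass through the electron transfer flavoprotein (ETF) to ubiquinone. Peroxisomes hold a parallel pathway that starts with an acyl-CoA oxidase. In egg-laying fish, estrogen turns the liver of females to making vitellogenin, a lipid-carrying yolk precursor, while the same cells also handle fatty acids drawn from stores.

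The 18 probes covered 6 enzyme roles. They were 4 acyl-CoA dehydrogenases, 3 enoyl-CoA hydratases, 2 probes for the beta subunit of the trifunctional enzyme (TP-beta), 3 for 3-hydroxyacyl-CoA dehydrogenases, 3 for 3-ketoacyl-CoA thiolases and 3 for the ETF system. The patterns for carnitine palmitoyltransferase and acyl-coenzyme A oxidase matched 0 probes, so these 2 enzymes were not analysed here. Of the 18 probes, 17 were well above background on all 15 arrays. The exception was the probe named probable enoyl-CoA hydratase, which was well above background on 0 arrays and gives no comparison between groups. Probe names are those of the array's design.

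A level below is the log2 of the background-subtracted signal minus the 75th percentile of log2 signal on the same array, and a shift is the difference between group means of such levels. A level says nothing about how abundant 1 transcript is beside another, since probes differ in brightness. In bulk liver, fewer cells of a type and less RNA per cell cannot be told apart. Over the 15 arrays the 75th percentile of signal lay between 544 and 3576 intensity units, and repeat spots correlated at 0.988 to 0.997. Between 75.6% and 91.7% of probes were well above background in all their spots without outlier flags. Of 30 probes for hepatocyte markers, 28 were well above background on every array. Their mean level lay between 3.27 and 3.69 in controls, between 3.31 and 3.95 at 50 ng/L and between 3.40 and 4.0 at 250 ng/L. All 57 exocrine pancreas probes were also tested, since pancreatic tissue lies in or along the liver of many bony fishes, and 50 of them were well above background on every array. Their mean level ran from -2.22 to 0.848 in controls, from -0.483 to 1.71 at 50 ng/L and from -0.122 to 2.21 at 250 ng/L, and 0 probes for adipose markers were found. The brightest vitellogenin I probe rose 9.55-fold at 50 ng/L and 18.9-fold at 250 ng/L over control (limma, adjusted p = 0.00182 and 1.17e-05).

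None of the 17 beta-oxidation probes passed the test at either dose. At 50 ng/L against control the count was 0 of 17 (limma, Benjamini-Hochberg over 6145 probes, threshold 0.05), where 0.553% of all probes tested passed, and 0 of 17 had an unadjusted p under 0.05, against 4.1% of all probes. At 250 ng/L against control it was again 0 of 17 by limma, where 2.7% of all probes passed, and 1 of 17 had an unadjusted p under 0.05, against 13.7%. For 250 against 50 ng/L it was 0 of 17, where 1.09% of all probes passed, and 0 had an unadjusted p under 0.05, against 8.14%. With 17 probes the shares past the adjusted threshold come to less than 1 call each, so a count of 0 does not set the beta-oxidation probes apart from the rest of the array. None of the 17 had groups that did not overlap in any of the 3 comparisons, while 1.2%, 4.44% and 2.95% of all probes did.

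The shifts were uncalled. Their median size lay below that over all probes in each comparison, by the most at 50 ng/L and by little in the others. Sign ignored, their median size was 0.10 for the low dose against control, beside 0.19 over all probes. For the high dose against control it was 0.25, beside 0.27, and from the low to the high dose 0.22, beside 0.23. At 50 ng/L 5 probes were higher and 12 lower than in controls, with a median shift of -0.07 beside -0.01 over all probes, and the shifts ran from -0.36 to 0.38. Without replicate 2 at 50 ng/L, described below, they ran from -0.18 to 0.51. The median size beside that over all probes was not compared without that array. At 250 ng/L 8 were higher and 9 lower, with a median of -0.04 beside -0.05 over all probes and a range from -0.50 to 0.59. Between the doses 8 were higher and 9 lower at 250 ng/L, with a median of -0.07 beside -0.05 and a range from -0.70 to 0.54. No beta-oxidation probe differed by as much as 2-fold between group means, as 4.8%, 7.32% and 4.43% of all probes did in the same 3 comparisons. Among only 17 probes, shares this low mean that the lack of such a probe does not set them apart from the array.

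A p over the threshold does not show that groups were alike, so the 95% interval of each shift was read as well. It lay within 2-fold in either direction for 14 of 17 probes in the comparison of 50 ng/L with control, and for 11 of 17 in each of the others. Over all probes tested the same held for 65.1%, 55.4% and 59.8%. For the others a change beyond 2-fold is within the interval. The widest belonged to probe B of the mitochondrial thiolase, from 0.612-fold to 2.48-fold at 250 ng/L, and the narrowest to probe A of TP-beta, from 0.667-fold to 1.19-fold.

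**Figure D1:**
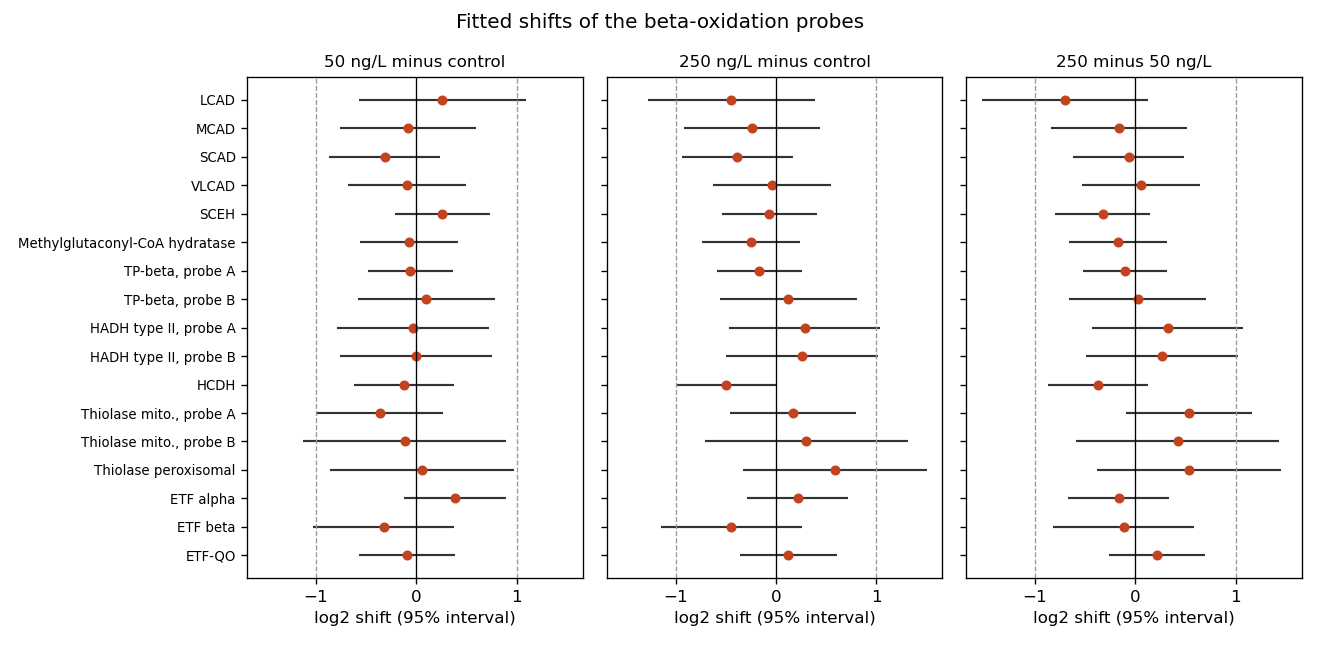
Fitted log2 shift (points) and 95% interval (bars) of each of the 17 beta-oxidation probes, in 3 panels for 50 ng/L minus control, 250 ng/L minus control and 250 minus 50 ng/L. Dashed lines mark 2-fold in either direction. Points lie between -0.70 and 0.59, and of 51 intervals only that of HCDH at 250 ng/L against control leaves out 0.

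**Figure D2:**
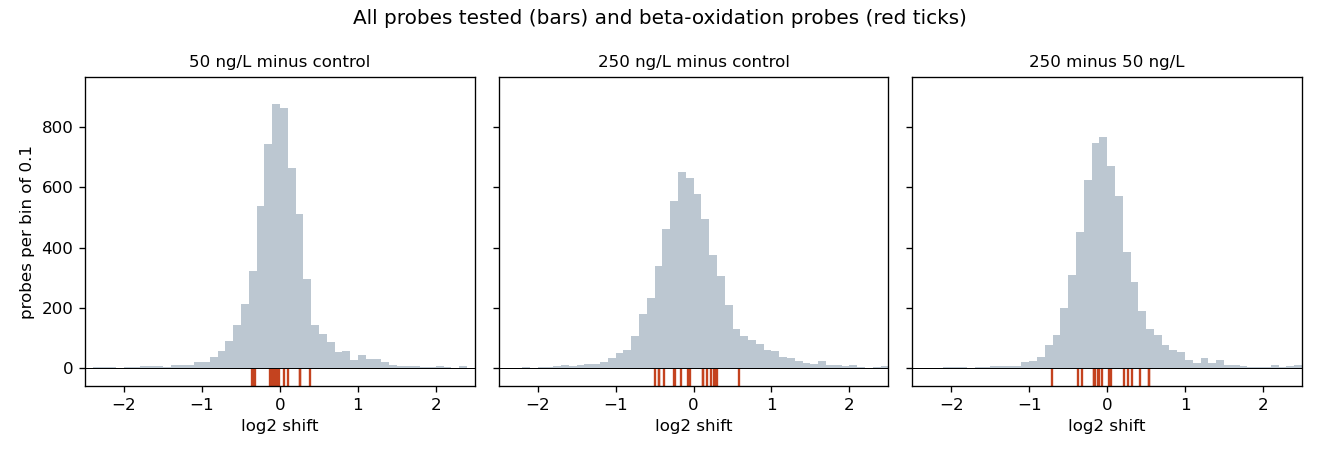
Number of probes per 0.1 of log2 shift for all 6145 probes tested (bars; the axis shows shifts from -2.5 to 2.5) and the 17 beta-oxidation probes (red ticks under the axis), in the same 3 comparisons. The ticks lie in the central body of the distribution on both sides of 0.

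The acyl-CoA dehydrogenases, which open each cycle, are flavoenzymes that divide the work by chain length. MCAD takes medium chains. Its level was 0.74, 0.73, 1.46, 1.76 and 1.60 on the control arrays, 1.53, 0.67, 1.35, 1.20 and 1.13 at 50 ng/L and 0.33, 0.36, 1.90, 1.45 and 1.06 at 250 ng/L. The groups overlap, and the 250 ng/L group holds both the lowest and the highest of the 15 values. The shift was -0.08 ± 0.32 (SE) at 50 ng/L and -0.24 ± 0.32 at 250 ng/L (limma, adjusted p = 0.999 and 0.813).

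LCAD, the long-chain dehydrogenase, read -3.75, -2.43, -2.63, -1.56 and -3.09 in controls. It read -1.72, -3.44, -2.48, -2.58 and -1.96 at 50 ng/L and -3.70, -3.41, -3.11, -2.75 and -2.72 at 250 ng/L. The control arrays spanned a range that took in every value of both exposed groups. At 250 ng/L it was lower than at 50 ng/L by a shift of -0.70 ± 0.39 (SE), 0.614-fold with a 95% interval from 0.346 to 1.09, and this was the largest difference of any member in that comparison (limma, unadjusted p = 0.0911, adjusted p = 0.729). Against control the shift was 0.26 at 50 ng/L and -0.44 at 250 ng/L.

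SCAD, which takes short chains such as butyryl-CoA, was lower than control on average at both doses. Its levels were -2.96, -1.90, -2.51, -1.93 and -2.33 in controls, -2.10, -3.23, -2.46, -2.40 and -3.02 at 50 ng/L and -2.89, -3.04, -2.43, -2.41 and -2.77 at 250 ng/L. Control replicates 2, 4 and 5 lay above every array of the high dose, while control replicate 1 lay among the lowest exposed arrays. The shift was -0.32 ± 0.26 (SE) at 50 ng/L and -0.38 ± 0.26 at 250 ng/L (limma, adjusted p = 0.999 and 0.598). VLCAD, the membrane-bound enzyme for very long chains, lay between -5.47 and -4.71 in controls, between -6.22 and -4.87 at 50 ng/L and between -5.93 and -4.84 at 250 ng/L, with shifts of -0.09 and -0.04. At 250 ng/L all 4 dehydrogenases had a negative shift, from -0.44 to -0.04, as had 55.3% of all probes, and 0 of 4 passed the test. Among the arrays of slide 2 all 4 were lower than control, while among those of slide 1 MCAD and VLCAD were higher, by 0.13 and 0.22.

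The enoyl-CoA hydratase named SCEH (crotonase) hydrates short chains. It read 0.84, 1.59, 1.36, 1.96 and 1.64 in controls, 1.89, 1.46, 1.71, 1.53 and 2.10 at 50 ng/L and 1.53, 1.0, 1.22, 1.68 and 1.63 at 250 ng/L. Its group means were 1.48, 1.74 and 1.41, so the low dose had the highest mean, and all 3 groups overlap. The shift was 0.26 ± 0.22 (SE) at 50 ng/L, -0.07 ± 0.22 at 250 ng/L and -0.33 ± 0.22 from the low to the high dose (limma, adjusted p = 0.999, 0.942 and 0.781). Methylglutaconyl-CoA hydratase, matched by the rule through its other name as an AU-specific RNA-binding enoyl-CoA hydratase, works in leucine breakdown in mammals rather than in the fatty acid cycle. It lay between -2.76 and -1.96 in controls, between -3.16 and -2.17 at the low dose and between -2.98 and -2.26 at the high dose. Its shifts were -0.07 at 50 ng/L and -0.25 at 250 ng/L.

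TP-beta carries the thiolase activity of the trifunctional enzyme. Its probe A read 1.11, 1.63, 1.02, 1.52 and 1.16 in controls, 1.36, 1.05, 1.42, 1.31 and 1.01 at 50 ng/L and 1.23, 0.59, 1.12, 1.52 and 1.17 at 250 ng/L. This probe had the smallest SE of the 17, and only replicate 2 of the high dose lay below 1. The shift was -0.06 ± 0.20 (SE) and -0.16 ± 0.20 (limma, adjusted p = 0.999 and 0.786). Probe B of the same name ranged from -3.23 to -1.41 in controls, from -2.90 to -1.67 at the low dose and from -2.44 to -1.70 at the high dose. Its shifts were 0.10 and 0.12, opposite in sign to probe A at both doses.

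HCDH, the medium- and short-chain 3-hydroxyacyl-CoA dehydrogenase, had the smallest p of any member at 250 ng/L. Its level was 2.06, 2.12, 1.66, 0.99 and 1.79 on the control arrays, 1.07, 1.81, 1.79, 1.76 and 1.55 at 50 ng/L and 1.04, 1.55, 1.48, 1.01 and 1.04 at 250 ng/L. Of the 5 controls, 4 lay above every array of the high dose, and control replicate 4 had the lowest value of all 15. The mean at 250 ng/L was 0.708-fold that of control, with a 95% interval from 0.501 to 0.999 (shift -0.50 ± 0.23 SE; limma, unadjusted p = 0.0497, adjusted p = 0.364). The arrays lay on 2 slides, by the numbers in their titles. HCDH was lower on both, with a shift of -0.73 among slide 1 arrays and of -0.45 among slide 2 arrays (limma, adjusted p = 0.539 and 0.622). Without control replicate 4, which had the lowest value, the shift was -0.68 (limma, adjusted p = 0.105). That was the smallest adjusted p of any member at 250 ng/L against control under the 29 alternatives. At 50 ng/L the shift was -0.13 ± 0.23.

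The type II 3-hydroxyacyl-CoA dehydrogenase, which in mammals also acts on steroids and on an isoleucine intermediate, was read by 2 probes that followed each other on every array. Probe B exceeded probe A by 0.22 to 0.44 over the 15 arrays. Probe A ranged from -2.01 to -1.24 in controls, from -2.82 to -0.84 at the low dose and from -2.28 to -0.72 at the high dose, so both exposed groups spread beyond the controls on either side. The shifts of probes A and B were -0.03 and -0.01 at 50 ng/L and 0.29 and 0.26 at 250 ng/L, against -0.50 for HCDH, and none of these passed the test.

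3-ketoacyl-CoA thiolases close the cycle. Probe A of the mitochondrial thiolase read 4.21, 4.59, 3.23, 4.05 and 4.51 in controls, 3.98, 2.83, 4.15, 4.08 and 3.73 at 50 ng/L and 4.12, 4.16, 4.49, 4.68 and 3.99 at 250 ng/L. The low-dose group holds the lowest value and has no array above 4.15, while the high-dose group has 1 array below 4. The shift was -0.36 ± 0.29 (SE) at 50 ng/L and 0.17 ± 0.29 at 250 ng/L. From the low to the high dose it was 0.54 ± 0.29, the smallest p of the 17 probes in that comparison (limma, unadjusted p = 0.0884, adjusted p = 0.727). Within slides the shift at 50 ng/L was -1.0 on slide 1 and 0.06 on slide 2. Probe B ranged from 0.18 to 1.82 in controls, from -1.20 to 1.55 at the low dose and from 0.60 to 1.49 at the high dose, with shifts of -0.12 and 0.30.

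The peroxisomal thiolase, the last step of the peroxisomal pathway, had the largest positive shift at 250 ng/L. It read -2.26, -1.92, -0.84, -2.52 and -0.76 in controls, -1.14, -3.21, -1.50, -0.85 and -1.32 at 50 ng/L and -0.72, -1.34, -0.86, -1.06 and -1.38 at 250 ng/L. Of the controls, 3 arrays lay at or below -1.92 and 2 at or above -0.84, the high-dose arrays lay between -1.38 and -0.72, and the groups overlap. The mean at 250 ng/L was 1.5-fold that of control, with a 95% interval from 0.795 to 2.85 (limma, unadjusted p = 0.192, adjusted p = 0.63). The shift of 0.59 was 1.11 on slide 1 and 0.16 on slide 2. All 3 probes of this role had a positive shift at 250 ng/L, both against control (0.17 to 0.59) and against 50 ng/L (0.42 to 0.54). Of all probes, 55.3% and 55.4% were lower in the same comparisons. Probes A and B of the mitochondrial thiolase correlated at 0.82 once group means were taken out, so the 3 are not independent. Of these 3 probes, 0 passed the test. TP-beta, whose name also holds 3-ketoacyl-CoA thiolase, did not share the sign in both probes. Its probes A and B had shifts of -0.16 and 0.12 against control, and of -0.10 and 0.02 against 50 ng/L. Within slide 1 the shift of probe A of the mitochondrial thiolase against control was -0.14. For the 3 probes of this role, the shared sign against 50 ng/L depended on 1 array. Without replicate 2 at 50 ng/L the shifts between the doses were 0.30 for probe A of the mitochondrial thiolase, -0.08 for its probe B and 0.13 for the peroxisomal thiolase.

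The ETF system carries the electrons of the acyl-CoA dehydrogenases onward. ETF alpha had the smallest p of any member at 50 ng/L. Its levels were -1.02, -0.25, -0.18, 0.29 and -0.03 in controls, 0.45, 0.17, 0.10, -0.19 and 0.22 at 50 ng/L and -0.06, -0.41, 0.45, 0.05 and -0.12 at 250 ng/L. Control replicate 1 lay apart at the low end, and the remaining controls overlap with both exposed groups. The mean at 50 ng/L was 1.31-fold that of control, with a 95% interval from 0.92 to 1.85 (limma, unadjusted p = 0.125, adjusted p = 0.999). The shift of 0.38 was 0.94 on slide 1, which holds control replicate 1, and 0.01 on slide 2.

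ETF beta, the partner subunit, did not follow ETF alpha in sign. It read -4.22, -3.13, -3.23, -2.16 and -3.79 in controls, -3.30, -4.33, -3.42, -3.44 and -3.67 at 50 ng/L and -3.70, -4.09, -3.25, -3.78 and -3.94 at 250 ng/L. Control replicate 4 was the highest array and control replicate 1 among the lowest, and the controls enclosed every exposed value except that of replicate 2 at 50 ng/L. The shift was -0.33 ± 0.33 (SE) at 50 ng/L and -0.44 ± 0.33 at 250 ng/L (limma, adjusted p = 0.999 and 0.634). ETF-QO, which passes the electrons to ubiquinone, ranged from -5.0 to -4.44 in controls, from -5.56 to -4.32 at the low dose and from -4.86 to -4.33 at the high dose, with shifts of -0.09 and 0.12.

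**Figure D3:**
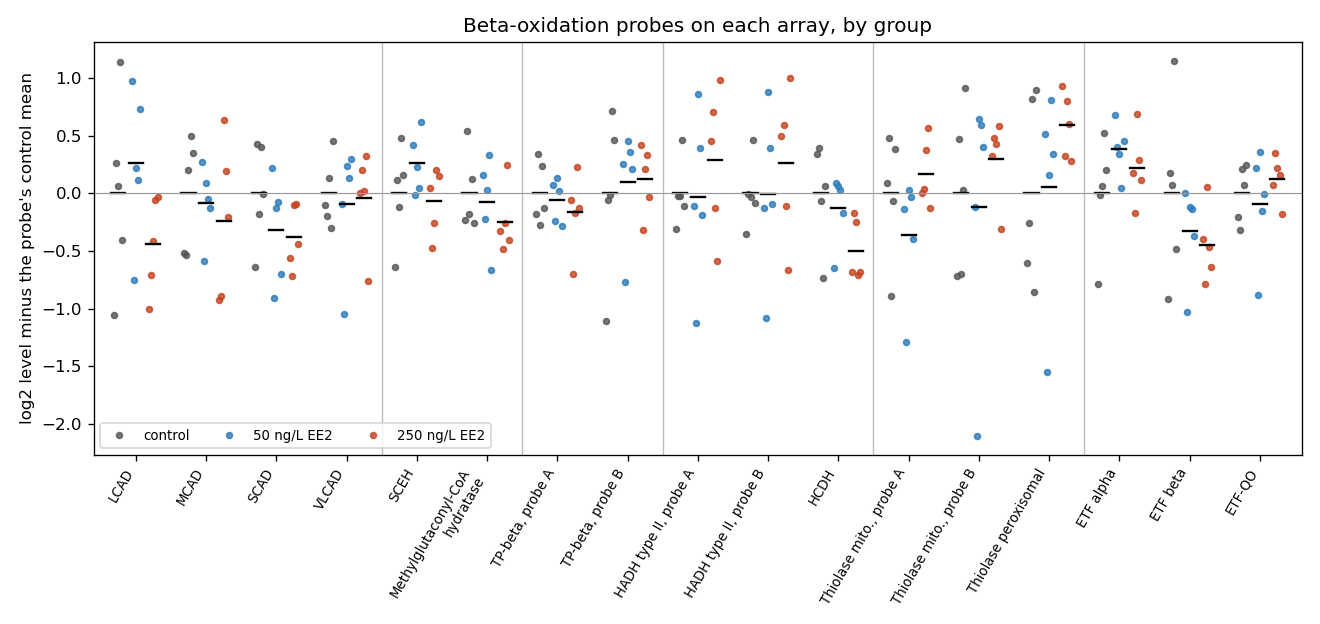
Level of the 17 beta-oxidation probes on each of 15 arrays, as log2 level minus the probe's control mean (points, 5 per group) with group means (black lines), ordered by enzyme role. The 3 groups overlap in every probe. All 5 arrays at 250 ng/L lie below the control mean for HCDH, LCAD and SCAD and above it for the peroxisomal thiolase. None of these probes passed the test, and the share of all probes with such a pattern was not counted. For LCAD the highest value at 250 ng/L (-2.72) lay close to the control mean (-2.69).

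Single arrays stood apart over many of the members. Replicate 2 of the 50 ng/L group, on slide 1, was the lowest of all 15 arrays for 9 of the 17 probes. It was below the probe's own mean for 15 of 17, HCDH and ETF alpha being the exceptions. Control replicate 1, also on slide 1, was likewise below the probe's own mean for 15 of 17, and the lowest array for 4. The median deviation of the 17 probes from their means was -0.77 on replicate 2 at 50 ng/L and -0.41 on control replicate 1. On replicate 2 of the high dose, also on slide 1, it was -0.37, and between -0.09 and 0.33 on the other 12 arrays. After quantile normalization it was -0.50 on replicate 2 at 50 ng/L, and -0.53 in the authors' deposited table. On control replicate 1 both gave -0.41. Over all probes tested, 13.5% had their lowest value on replicate 2 at 50 ng/L, as had 4 of the 26 companion probes described below. The same array had the lowest mean level of the red blood cell markers, -3.35, a pancreas marker mean of 1.39 and a hepatocyte marker mean of 3.31, and their part in the low values was not tested.

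Without that array the median shift at 50 ng/L against control was 0.15 in place of -0.07, with 11 probes higher and 6 lower, and 0 of 17 passed (limma, smallest adjusted p = 0.999, 0 with an unadjusted p under 0.05). Over all probes the median was then 0.03, and 45.6% were lower. Control replicate 1, the next lowest array, stayed in that fit. Leaving out each of the 15 arrays in turn gave member medians from -0.18 to 0.15, so the sign depended on the array left out. Between the doses, without replicate 2 at 50 ng/L, the member median was -0.19, with 4 higher and 13 lower. Over all probes the median was then -0.08, and 59.8% were lower. The shift of LCAD was -0.96 (limma, unadjusted p = 0.0236, adjusted p = 0.5). Probe B of the mitochondrial thiolase moved most at 50 ng/L, from -0.12 to 0.38. With the array left out, the median within-group SD of the 17 probes at 50 ng/L was 0.264, and 0.484 with it. In controls the median SD was 0.453 and at 250 ng/L 0.31, where the medians over all probes were 0.46 and 0.425. At 50 ng/L with that array the median over all probes was 0.433. Of the 17 probes, 10 had their smallest SD in the high-dose group with that array included, beside 36.3% of all probes, and 4 without it, beside 30.4%. Without it 11 had their smallest SD at 50 ng/L, beside 45.5% of all probes. Leaving out an array picked because its values lay apart tends to lower the SD of its group.

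**Figure D4:**
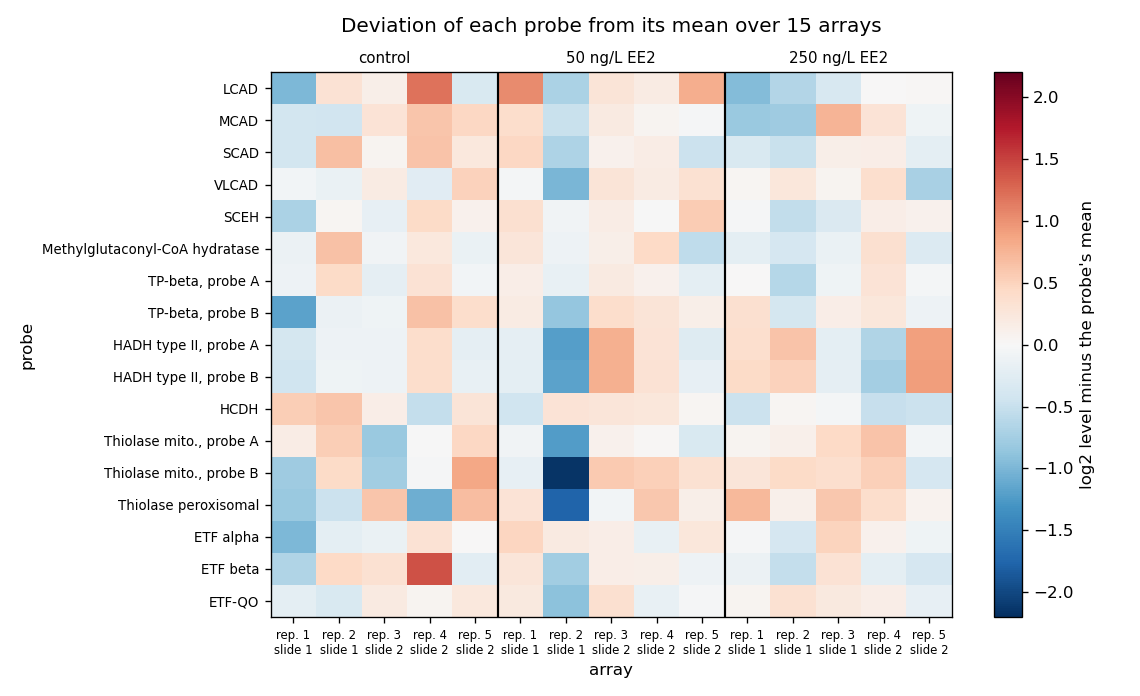
Deviation of each of the 17 beta-oxidation probes (rows) from its mean over 15 arrays (columns, by group, with replicate and slide), in log2 units; blue is below and red above the mean. Replicate 2 at 50 ng/L is blue in 15 of 17 rows, with a median deviation of -0.77. Control replicate 1 is also blue in 15 of 17 rows, with a median deviation of -0.41.

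Shifts often differed between slides. Slide 1 held 2 control, 2 low-dose and 3 high-dose arrays and slide 2 held 3, 3 and 2. Shifts had opposite signs on the 2 slides for 10 of 17 probes at 50 ng/L against control, beside 59.2% of all probes, for 8 of 17 at 250 ng/L, beside 44.3%, and for 11 of 17 between the doses, beside 53.9%. The median shift at 250 ng/L against control was 0.13 on slide 1 and -0.06 on slide 2. With slide as a block, 0 of 17 passed in each of the 3 comparisons, and the same held with the pancreas marker mean as a covariate, an alternative added after its values were seen, where 9 of the 17 were higher and 8 lower than control at each dose.

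Probes sharing a name did not always read alike. The gap between both TP-beta probes ran from 2.82 to 4.34 over the 15 arrays, widest on control replicate 1, and that between both mitochondrial thiolase probes from 2.42 to 4.03, widest on replicate 2 of the 50 ng/L group. The labels do not tell whether such probes read 1 transcript or related ones. After the group means were taken out, the correlation between members over the 15 arrays had a median of 0.33 over 136 pairs, with 113 above 0, as a description of arrays that share their RNA and scaling. Apart from probes of 1 name, it was highest for VLCAD with ETF-QO (0.80) and for LCAD with ETF beta (0.80). VLCAD and ETF-QO both had their lowest value of the 15 arrays on replicate 2 of the 50 ng/L group (-6.22 and -5.56). Correlations between members were not taken without that array. HCDH ran against several members, at -0.72 with SCEH and -0.69 with LCAD.

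The non-member probe most like the mean level of the 17, of 3874 named probes searched over 15 arrays, was the mitochondrial carnitine/acylcarnitine carrier, which brings acylcarnitines across the inner membrane. Its Pearson r was 0.965 and its Spearman rho 0.882, and r was 0.884 without the 2 arrays farthest from the median, replicate 2 at 50 ng/L and control replicate 1. It was followed by sorting nexin 3 (r = 0.934), the gamma-1 subunit of AMP-activated protein kinase (0.921), core protein 2 of respiratory complex III (0.899) and the Hsc70-interacting protein (0.89). Without the same 2 arrays these were 0.621, 0.762, 0.624 and 0.629. The values are descriptions of probes picked for their likeness. The carrier itself had shifts of -0.15 at both 50 and 250 ng/L (limma, adjusted p = 0.999 and 0.909).

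**Figure D5:**
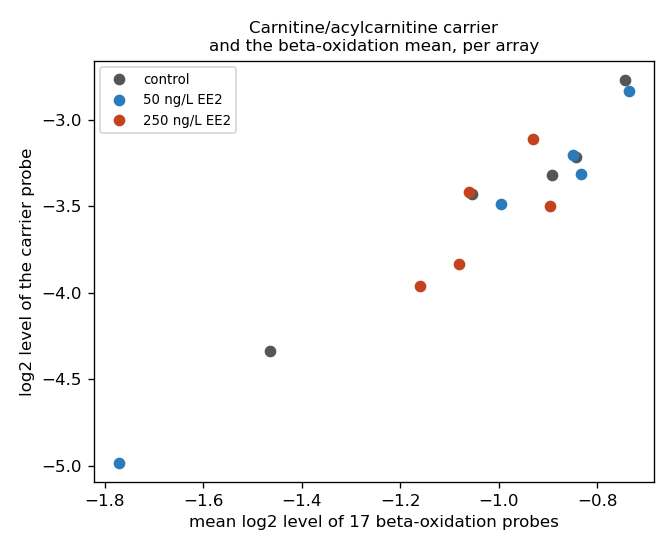
Level of the carnitine/acylcarnitine carrier probe (vertical, log2) against the mean log2 level of the 17 beta-oxidation probes (horizontal) on 15 arrays, coloured by group. The 3 groups lie along 1 band (r = 0.965), and replicate 2 at 50 ng/L and control replicate 1 lie at its low end.

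Companion genes of fatty acid and acyl-CoA metabolism were read by 26 probes, all tested. Of these, 22 cover the carnitine carrier and carnitine acetyltransferase, auxiliary isomerases and a reductase for unsaturated chains, acyl-CoA thioesterases, binding protein and synthetase, branched-chain and glutaryl-CoA dehydrogenases, the propionate branch, ketone body use, catalase and a peroxisome assembly protein. The other four are the PGC-1 related co-activator, both probes of cytosolic acetyl-CoA acetyltransferase and acetyl-CoA carboxylase 1, which makes the malonyl-CoA used in fatty acid synthesis, so the list is not one of breakdown alone. Of the 26, 0 passed in any of the 3 comparisons (limma), with 0, 3 and 0 at an unadjusted p under 0.05, beside the same shares of all probes as above. At 50 ng/L 13 were higher and 13 lower than control. At 250 ng/L 5 were higher and 21 lower, with a median shift of -0.23 beside -0.05 over all probes, where 55.3% were lower. Both acetyltransferase probes are among the 5 and acetyl-CoA carboxylase 1 is among the 21. Most exocrine pancreas markers were higher on average in the same comparison: 48 of 57 at 250 ng/L, with a median shift of 1.1 (47 of 57 and 1.01 at 50 ng/L). Of the 57, 0 passed the test at either dose. Their mean level was -2.22 on control replicate 2 and between 0.04 and 0.85 on the other controls. At 250 ng/L it ran from -0.12 to 2.21, so the groups overlap. With the pancreas marker mean as a covariate 9 companions were higher and 17 lower at 250 ng/L, with a median of -0.20. Without the arrays lowest and highest in those markers 7 were higher and 19 lower, with a median of -0.21. These counts are descriptions, and whether pancreatic tissue had a part in the companions' shifts was not tested. Within slide 1 the companions were 10 higher and 16 lower, with a median of -0.13, where 54.5% of all probes were lower. Within slide 2 they were 5 higher and 21 lower, with a median of -0.24. With slide as a block 6 were higher and 20 lower, with a median of -0.18.

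Methylmalonyl-CoA epimerase, of the branch that turns propionyl-CoA into succinyl-CoA, had the smallest p of the companions at 250 ng/L. It read -2.74, -2.79, -3.0, -3.49 and -3.26 in controls, -3.32, -3.28, -3.06, -3.21 and -2.81 at 50 ng/L and -3.48, -3.39, -3.67, -3.34 and -3.74 at 250 ng/L. Every high-dose array lay below every low-dose array, while controls overlap with both. It was the 1 companion of 26 without overlap between the doses, beside 2.95% of all probes. The shift was -0.47 ± 0.18 (SE) against control (limma, unadjusted p = 0.0224, adjusted p = 0.269) and -0.39 ± 0.18 against 50 ng/L (adjusted p = 0.62).

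The next smallest p-values at 250 ng/L belonged to the PGC-1 related co-activator, probable isovaleryl-CoA dehydrogenase and peroxisomal acyl-CoA thioesterase Ib. The co-activator, of a family known in mammals for driving mitochondrial gene expression, lay between -4.13 and -1.61 in controls with a median of -2.23, and between -4.88 and -2.55 at 250 ng/L with a median of -3.44. Its mean was 0.467-fold that of control, with a 95% interval from 0.222 to 0.986 (limma, unadjusted p = 0.0462, adjusted p = 0.354). Probable isovaleryl-CoA dehydrogenase, of leucine breakdown, had a shift of -0.42 (limma, adjusted p = 0.355). The other isovaleryl-CoA dehydrogenase probe went the opposite way, with a shift of 0.44 (limma, adjusted p = 0.6). For the thioesterase, which releases free fatty acids in peroxisomes, the shift was -0.48 (limma, adjusted p = 0.485). Cytosolic acetyl-CoA acetyltransferase, which joins acetyl-CoA units for sterol synthesis, was higher by 0.56 and 0.64 for its 2 probes at 250 ng/L, and neither passed (adjusted p = 0.511 for both).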

How the data were processed

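RNA of 15 liver samples was labelled with Cy3 and hybridised to 1-colour Agilent arrays, per the labels. The deposited scanner files hold intensity values (processed, median and background signals) from Agilent Feature Extraction, per the file headers. The authors' deposited table holds log2 values with normalization steps unknown here, used as an alternative.

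Each level is the mean log2 processed signal of a probe's spots without outlier flags, minus the array's 75th percentile of log2 signal over non-control spots. A probe was tested when well above background on at least 5 of 15 arrays (6145 of 7152). limma 3.58.1 in R 4.3.3 fitted group means over all 15 arrays, with Benjamini-Hochberg adjustment over all probes tested and a threshold of 0.05; on simulated data it was checked for recovery of known shifts. The number of arrays limits the precision.

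Members and lists were chosen with earlier results of these data known. Named with every value were, per enzyme role, the brightest member, and the 4 members with the smallest p in each comparison. Of the companions, the 4 with the smallest p at 250 ng/L were named, the first with every value. The acetyltransferase and the other isovaleryl-CoA dehydrogenase probe were added after their values were seen. Slides came from the array titles. None of the 119 GenBank identifiers matched RefSeq (0 matched), so names are the array design's. Alternatives covered normalization, background, filter, slide, array weights and left-out arrays.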

Additional observations from a re-analysis of the deposited data

Results flagged for a closer look

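In 4 of 51 sets of 5 arrays (17 probes in 3 groups), 1 array lay apart from the other four by more than Dixon's 95% limit of 0.71 of the range. Chance alone flags about 1 in 20. All 4 were replicate 2 of the 50 ng/L group. Probe B of the mitochondrial 3-ketoacyl-CoA thiolase read -1.20 there, where the others ran from 0.78 to 1.55. The peroxisomal thiolase read -3.21 against -1.50 to -0.85. TP-beta probe B read -2.90 against -1.92 to -1.67, and VLCAD -6.22 against -5.26 to -4.87. These 4 probes share 1 array and are not independent of each other.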

How the results depend on the processing

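All 17 probes stayed over the threshold in each of 3 comparisons under 29 alternatives, 2 of them (leaving out the arrays lowest and highest in pancreas markers, and the pancreas marker level as a covariate) chosen after seeing the data. The smallest adjusted p at 250 ng/L was 0.105, for HCDH without control replicate 4, and 0.531 and 0.435 in the comparisons of 50 ng/L with control and of the doses. The 26 companions likewise gave 0 calls under every alternative. The median member shift ran from -0.18 to 0.15 at 50 ng/L, from -0.15 to 0.13 at 250 ng/L and from -0.19 to 0.14 between the doses. Single uncalled shifts took the opposite sign in 60, 23 and 31 of 493 values in the 3 comparisons, 24 of them within slide 2 alone. Some alternatives could not move a shift, so these shares understate how often signs changed where they could. They were the probe filters, the fit of only the groups compared, and leaving out an array of the group not compared. Only 4, 8 and 6 of the 17 probes kept their sign under all 29 alternatives in the 3 comparisons.

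The number of all probes called moved by more than 1.5 times within slide 1 (3, 42 and 0 for 50 ng/L, 250 ng/L and the doses), within slide 2 (109 at 250 ng/L and 0 between the doses) and with array weights (317 at 250 ng/L); within a slide fewer arrays were fitted. Leaving out 1 array gave 22 to 36, 122 to 191 and 34 to 67 calls, the lowest without control replicate 3 for the first and 50 ng/L replicate 5 for the last; it was 44 between the doses without 50 ng/L replicate 2, and 41 and 39 without 250 ng/L replicates 1 and 2. No paired analysis was possible because the labels give no replicate numbers.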
